A study of Mus musculus with 4 samples.

Results

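The genes described here are 7 of the voltage-gated sodium channel family: the pore-forming alpha subunits Scn1a, Scn2a, Scn3a and Scn8a and the accessory beta subunits Scn2b, Scn3b and Scn4b. They were chosen by gene symbol, and every row of the deposited site list that carries one of these symbols was taken. The rows numbered 138 of the 28412 in the list, which holds 4206 symbols. Of the 7 genes, 6 had at least 1 listed site and Scn4b had 0. For comparison, 17.5% of the 22028 protein-coding genes of the annotation had a site, and nothing is read from this comparison.

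The list comes from scDART-seq of mouse cortex. This single-cell method joins a YTH domain, which binds N6-methyladenosine (m6A) in RNA, to the enzyme APOBEC1, which deaminates nearby cytosines to uracil. The edited bases appear in sequencing as C-to-T changes. All 4 samples were sublibraries of a single pool of dissociated cells carrying either APOBEC1-YTH or APOBEC1-YTHmut, the version with a mutated YTH domain, and the labels name replicates 1 and 2 within each. Mice were 6 to 8 weeks old at the first tamoxifen dose, received 20 mg/kg at intervals of 24 h for 5 days, and were sampled 7 days after the last dose. The labels do not say which promoter drives the fusion. The list names no sample, genotype, cell type or read depth, so no replicate error exists for any value here and no test was run. Each site has a whole number, called the site count below, and the sources used here do not say what it counts. It ranged from 3 to 3538 over the list, with a median of 4. Of 22 marker genes of cortical cell types 17 had a site. Those without were Gad1, Slc32a1 and Pvalb of inhibitory neurons, Gfap of astrocytes and P2ry12 of microglia. The other inhibitory markers, Gad2 and Sst, had 7 and 2 sites, and the other microglial markers, Cx3cr1 and Csf1r, had 1 each. The neuronal markers Syt1, Snap25, Rbfox3 and Stmn2 had 139, 80, 22 and 22 sites, and the other astrocyte markers, Slc1a2 and Aqp4, had 251 and 22.

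Voltage-gated sodium channels open on depolarisation and carry the inward current that starts and propagates action potentials. The alpha subunit is a long chain of homologous domains joined by intracellular loops, and it holds the voltage sensors, the pore and the inactivation gate. Scn1a is the alpha subunit on which parvalbumin interneurons depend and is mutated in Dravet syndrome. Scn2a is prominent in excitatory neurons, Scn8a gathers at the axon initial segment and at nodes of Ranvier, and Scn3a is expressed mainly before and around birth. Beta subunits are small proteins with a single membrane span that change the gating and the surface level of the alpha subunits. Scn2b and Scn4b are bound to them by a disulfide bond and Scn3b is not. m6A is a methyl mark on adenosines of mRNA, most often after a purine and before a cytosine, and it affects the splicing, decay and translation of the RNA.

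The sites that carried the highest counts in each alpha gene are shown first, because the results below turn on their position and context. Each line gives 21 bases of the mRNA strand, written as DNA from 5′ to 3′, with the edited C in the middle. Capitals mark RAC, the edited C with the A before it and the purine before that A.
Scn2a, 240: agaagactGACgtgacaccct
Scn2a, 228: actgacgtGACaccctccacc
Scn2a, 68: gatagcgtGACcaaaccggag
Scn8a, 104: catggggaGACtctggccccg
Scn8a, 36: gtaaacttAACaggatacaaa
Scn1a, 26: agaaaactGACctgacaatgt
Scn3a, 9: gacagtgtAACaaaaccagat
The number after each name is the site count. The 2 highest sites of Scn2a lie 5 bases apart, so their windows overlap, and the second GAC of the first window is the centre of the next.

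Scn2a held the most sites of the 7 genes. It had 68 sites on the plus strand of chromosome 2, between 65670618 and 65767030 (mm10), and ranked 32 among the 4206 symbols by number of sites. Their counts ran from 3 to 240 with a median of 4.5 and summed to 1118. Scn8a followed with 42 sites on chromosome 15 (rank 105, counts 3 to 104, median 4, sum 454). Scn1a had 14 sites (rank 475, counts 3 to 26, median 8, sum 146), and Scn3a had 6 (rank 1038, counts 3 to 9, median 5.5, sum 33). The alpha genes thus ranged from 6 to 68 listed sites. Their longest coding transcripts measure 8386 nt for Scn1a, 8935 nt for Scn2a, 9560 nt for Scn3a and 11436 nt for Scn8a.

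The beta subunits carried few sites and low counts. Scn3b had 6 sites on chromosome 9, of which 1 had a count of 4 and 5 a count of 3, and Scn2b had 2, with counts of 5 and 3. Scn4b, whose annotated transcript is 4982 nt long and holds 118 RAC cytosines, had 0 listed sites. Scn2b and Scn4b are neighbours on chromosome 9, 8324 nt apart on the same strand. The list holds no expression levels, and for a gene without a site, low expression, few reads, no editing and a filter cannot be told apart.

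Per kb of annotated exon the order was Scn2a with 5.34 sites, Scn8a with 2.66, Scn1a with 1.26, Scn3b with 1.10, Scn3a with 0.482, Scn2b with 0.43 and Scn4b with 0. The median of the 6 sodium channel genes with a site was 1.18 per kb, against 0.431 over all 3859 protein-coding genes with a site. In that ranking Scn2a stood at 158, Scn8a at 404, Scn1a at 876, Scn3b at 967, Scn3a at 1798 and Scn2b at 1933. Scn3a and Scn2b therefore lay near the middle of all genes with a site, and Scn2a and Scn8a near the upper end.

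**Figure D1:**
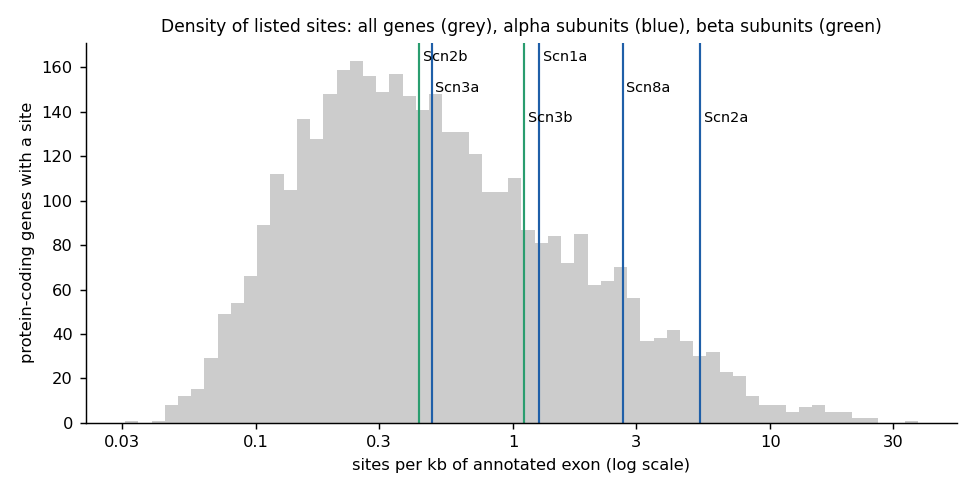
Number of protein-coding genes (y axis) by sites per kb of annotated exon (x axis, log scale); grey bars are all 3859 protein-coding genes with a site, blue lines alpha subunits and green lines beta subunits. Scn2a at 5.34 and Scn8a at 2.66 lie in the upper tail, and Scn3a at 0.482 and Scn2b at 0.43 near the median of 0.431.

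The members differed in where on the transcript the sites lay. On the longest coding transcript, Scn2a had 41 sites in coding sequence (CDS) and 27 in the 3' UTR, and Scn8a had 6 in the CDS and 36 in the 3' UTR. Scn1a had 11 in the CDS and 3 in the 3' UTR, Scn3a 3 and 3, Scn2b 1 and 1, and Scn3b 0 and 6. All members together had 62 of 138 sites in the CDS, or 44.9% (95% exact Clopper-Pearson interval 36.5 to 53.6). For the other symbols the share was 36.0% (35.4 to 36.7) of the 23102 sites that lie on a longest coding transcript. Their remaining sites lie off such a transcript and are left out of this share. Without Scn2a the members' share was 30%, below the 36.0% of those 23102 sites. These intervals cover counting error only, and sites of a gene are not independent. No member had a site in its 5' UTR, and none lay inside an annotated exon on the opposite strand.

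The region depends on the transcript chosen for Scn1a alone among the members. When any annotated transcript may place a site and the 3' UTR comes first, 13 of its 14 sites count as 3' UTR. The longest coding transcript places 3 of them there, and other annotated transcripts of the gene place the rest there. By the rule that puts the 3' UTR first, the members had 86 sites in the 3' UTR, 62.3% (53.7 to 70.4). Among all 28274 sites of the other symbols the share was 61.8% (61.3 to 62.4). The members' CDS share was then 37.7% (29.6 to 46.3), against 26.03% (25.5 to 26.5) of those 28274. Scn2a alone carried 41 of these 52 CDS sites, and without it the CDS share was 15.7%, again below that of the other symbols.

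**Figure D2:**
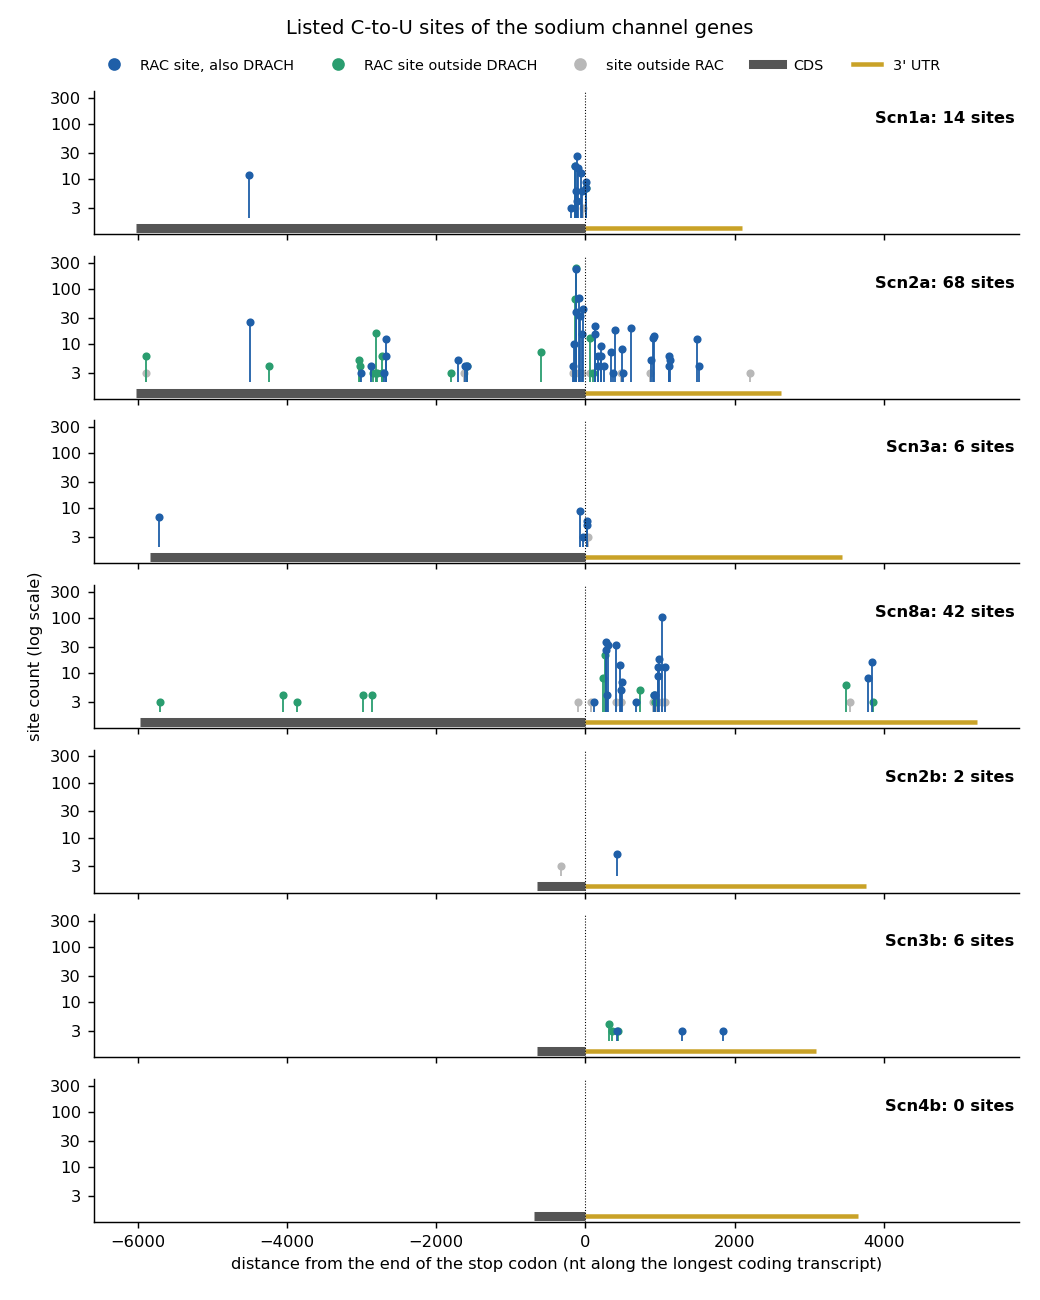
Each row is a gene, the x axis the distance from the end of the stop codon along its longest coding transcript in nt, and the y axis the site count on a log scale; points are sites coloured by motif, and the bars below show CDS and 3' UTR. All but 1 site each of Scn1a and Scn3a sit close to the stop codon, those of Scn8a mainly 229 to 1072 nt after it, those of Scn2a on both sides of it and in earlier exons, and Scn4b has 0.

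The strongest group of sites lay at the end of the Scn2a reading frame. In the 142 nt from 174 to 33 nt before the end of the stop codon (chr2:65764655-65764796), Scn2a had 16 sites whose counts summed to 762, or 68.2% of the total of the gene. The sites with counts of 240 and 228 lay 126 and 121 nt before the end of the stop codon, at 65764703 and 65764708. Around them were sites with counts of 66, 38, 68, 32, 15 and 43, and the other 8 had counts of 3 to 10. This stretch codes for the C-terminal end of the channel, the last part of its intracellular tail.

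Almost every cytosine there that could be an RAC site was listed. Of the 11 RAC cytosines in the last 200 nt of the Scn2a CDS 10 were sites, and of the 11 in Scn1a 9 were. Scn3a had 2 of 8 and Scn8a had 0 of 4. In Scn2b, Scn3b and Scn4b the count was 0, of 4, 4 and 6 RAC cytosines. Over all other protein-coding genes with a site, 962 of 24308 RAC cytosines in the last 200 nt of the CDS were listed, or 3.96%. By the number of RAC sites in this window Scn2a ranked 2 of 3859 genes, after Atp2b1, a calcium pump, with 11, and Scn1a shared rank 3 with 5 other genes. By their summed count, 744 in Scn2a, it ranked 1, and Scn1a with 108 ranked 18. The 200 nt window and these ranks were chosen after the values were seen.

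Scn1a held nearly all its sites in the same place. A run of 13 sites covered 203 nt from 191 nt before the end of the stop codon to 11 nt after it (chr2:66272874-66273076) and held 91.8% of the summed count of the gene. In transcript order their counts were 3, 17, 17, 6, 4, 26, 16, 13, 6 and 3 in the CDS and 7, 9 and 7 in the 3' UTR. The last 3 lay 2, 8 and 11 nt after the stop codon. No other site was listed in the remaining 3' UTR of 2104 nt, whose next RAC cytosine lies at 36 nt. Scn3a resembled it on a smaller scale, with counts of 9 and 3 at 67 and 36 nt before the end of the stop codon and of 6, 5 and 3 at 21, 26 and 38 nt after it.

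At the end of its CDS, in the window used above, Scn8a had 0 of 4 RAC cytosines listed. The same count of 0 held for 3365 of the 3859 protein-coding genes with a site, Scn8a included. It is therefore not read as a trait of Scn8a. The only listed site there, 102 nt before the end of the stop codon, had a count of 3 and lay outside RAC. Most Scn8a sites lay in the 3' UTR. Runs there held 6 sites from 229 to 308 nt and 7 sites from 408 to 484 nt after the stop codon. A further run held 14 sites from 910 to 1072 nt after it. The highest, with a count of 104, lay at 1030 nt (position 101041718 of chromosome 15). Sites with counts of 36, 33 and 33 lay at 279, 308 and 412 nt. Farther along, 5 sites with counts of 3 to 16 lay 3493 to 3849 nt after the stop codon, with none listed from 1072 nt up to there.

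**Figure D3:**
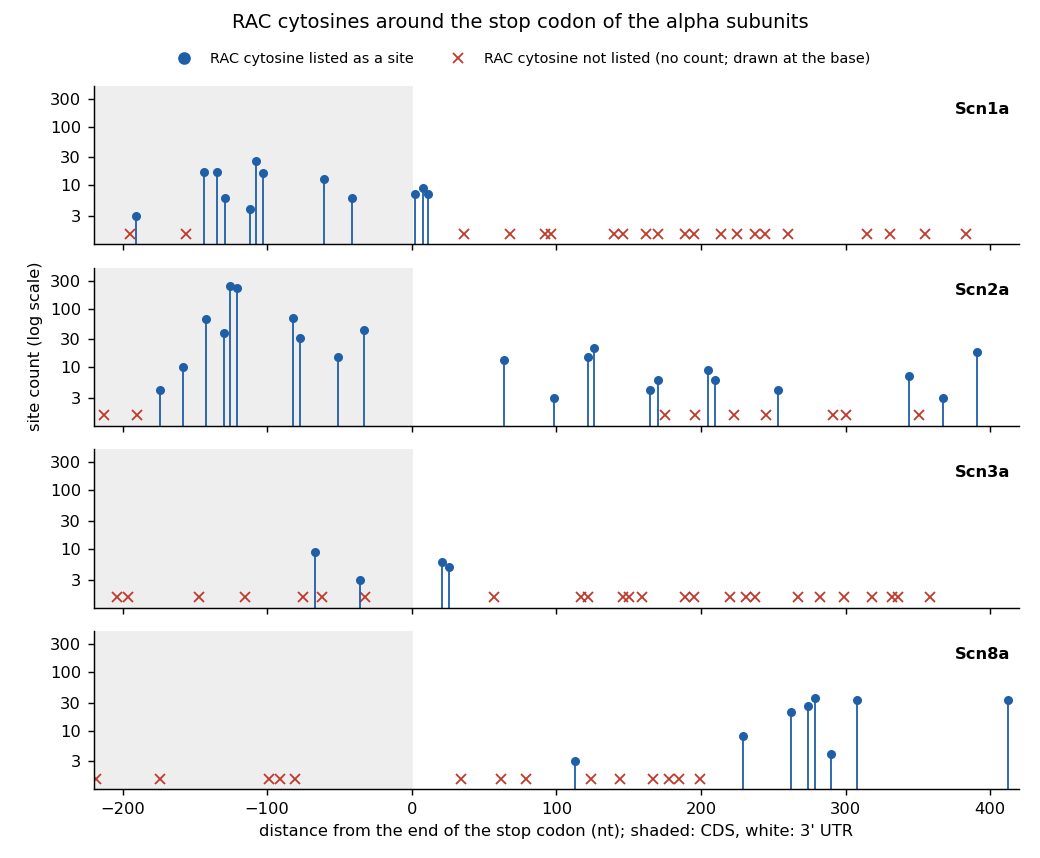
RAC cytosines from 220 nt before to 420 nt after the end of the stop codon (x axis, nt) of the alpha genes; filled points are listed sites at their site count (y axis, log scale), crosses are RAC cytosines that are not listed and are drawn at the base. Scn2a and Scn1a have points through the last 200 nt of the CDS (10 of 11 and 9 of 11 listed), where Scn3a has 2 of 8 and Scn8a 0 of 4, while Scn8a points begin in the 3' UTR.

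Use of RAC cytosines in the 3' UTR separated the alpha genes in another way. In the first 1200 nt of the 3' UTR Scn2a had 21 of 36 RAC cytosines listed (58.3%) and Scn8a 22 of 45 (48.9%). Scn1a had 3 of 39 (7.69%), Scn3a 2 of 27 (7.41%), Scn3b 4 of 38 (10.5%), Scn2b 1 of 28 (3.57%) and Scn4b 0 of 19. All other protein-coding genes with a site had 8.52% in this window. Beyond 1200 nt Scn2a had 2 of 23 and Scn8a 4 of 102, and all other genes 3.25%. Scn2a thus had listed sites on both sides of the stop codon, Scn1a mainly before it and Scn8a mainly after it. The list holds no read depth along the transcript, and the part of depth in these differences was not tested.

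**Figure D4:**
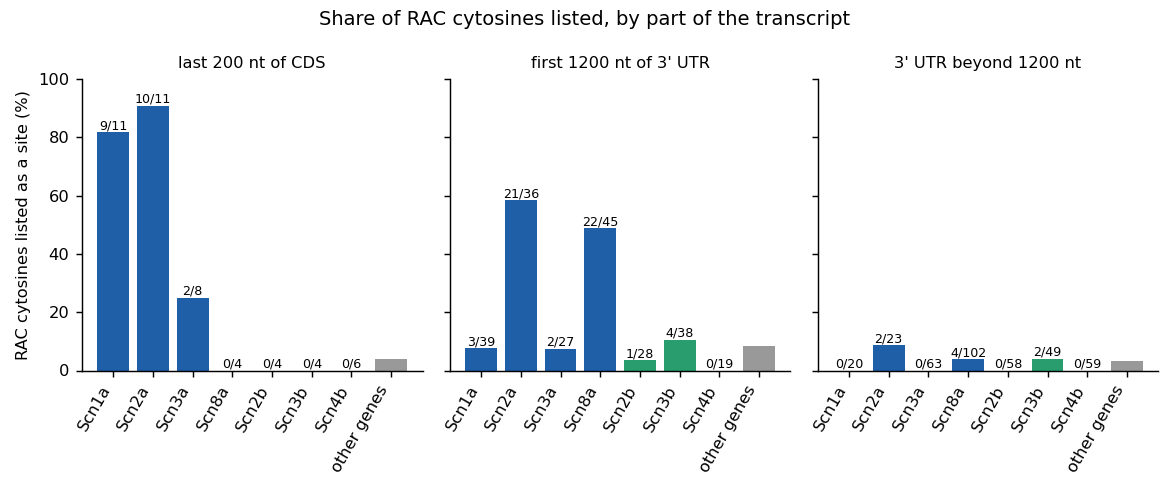
Percentage of RAC cytosines listed as a site (y axis) in 3 parts of the longest coding transcript; blue bars are alpha subunits, green bars beta subunits, the grey bar all other protein-coding genes with a site, and the fractions give listed over all RAC cytosines. In the last 200 nt of the CDS Scn1a and Scn2a reach 81.8% and 90.9%, and in the first 1200 nt of the 3' UTR Scn2a and Scn8a reach 58.3% and 48.9%.

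Sites in earlier exons were mostly those of Scn2a. It had 24 sites before its last exon, Scn8a had 5, and Scn1a, Scn3a and Scn2b had 1 each. Of the 104 exons of the alpha transcripts that are not last, 12 carried a site. The median length of those 12 was 316 nt, against 148.5 nt for the exons without one. Longer exons offer more RAC cytosines, which this comparison does not take into account, so it is not read as a preference for long exons. Exon 17, the longest internal exon in all 4 alpha genes, codes for much of the loop between the second and the third domain. In Scn2a it is 480 nt long and had 14 sites with counts of 3 to 16, which took in 12 of its 21 RAC cytosines. Scn8a had 2 sites there, each with a count of 4, of 25 RAC cytosines, and Scn1a and Scn3a had 0 of 24 and 0 of 21. Over all other protein-coding genes with a site, 2.24% of RAC cytosines in the CDS more than 200 nt before its end were listed. A shorter exception was exon 24 of Scn2a, 138 nt long, with 5 sites of counts 3 to 5. It codes for the end of the third domain and the start of the loop that forms the inactivation gate.

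Several sites fell on the same base of different alpha genes. The coding sequences were aligned codon by codon over 2046 columns, and 7 columns held a site in more than 1 gene. Of these, 5 lay at the C-terminal end, 1 in exon 2 at the N-terminal end and 1 in exon 11, which codes for part of the loop between the first and the second domain. Scn1a and Scn2a shared 5 bases and Scn2a and Scn3a 3. At the bases aligned to RAC sites of the CDS, the other alpha genes had 64 RAC cytosines, and 18 were listed. Each shared pair counts from both sides in these numbers. In the last 200 nt of the CDS most RAC cytosines were listed in Scn1a (9 of 11) and Scn2a (10 of 11). The sharing there is therefore not read as conservation of position. Scn8a shared none, with an RAC cytosine at 10 of the 31 bases where Scn2a had an RAC site in the CDS. Of the RAC cytosines of the Scn8a CDS, 5 of 176 before the last exon (2.84%) and 0 of 31 in it were listed. Other protein-coding genes with a site had 2.24% listed in the CDS more than 200 nt before its end. The absence of listed sites at these 10 bases is therefore not read as a result about Scn8a.

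The base shared by the most genes was 82 nt before the end of the Scn2a stop codon. Scn2a had a count of 68 there, Scn1a of 13 and Scn3a of 9. The sequences below show that Scn8a has the GAC of Scn1a and Scn2a at this base, without a listed site.
Scn1a: gatcgggtGACaaagccaatc
Scn2a: gatagcgtGACcaaaccggag
Scn3a: gacagtgtAACaaaaccagat
Scn8a: gacagcgtGACaaagcccgac
At the base of the highest Scn2a count, only Scn1a shares the cytosine. Counts there were 240 in Scn2a and 26 in Scn1a, and Scn3a and Scn8a have no C at this place.
Scn1a: agaaaactGACctgacaatgt
Scn2a: agaagactGACgtgacaccct
Scn3a: aaaagacagatgggagttcct
Scn8a: agaagaaggagagcaccccgt
In this pair of windows Scn1a and Scn2a also share the next GAC, with counts of 16 and 228, and the RAC cytosine before the first one, with counts of 4 and 38.

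In exon 11 the shared base had a count of 12 in Scn1a and 25 in Scn2a, and was the only listed site of that exon in either gene. Scn3a has an RAC cytosine there that was not listed, and in Scn8a the C follows a G.
Scn1a: aaaaaggaAACagaaagagca
Scn2a: gaaaaagaAACagaaagagca
Scn3a: gaagaggaGACagagggagca
Scn8a: gaagaggaagCagaaggagct
In exon 2 Scn2a and Scn3a had counts of 6 and 7 at an aligned cytosine that Scn1a and Scn8a lack.
Scn1a: cagacaaaaaagatgatgatg
Scn2a: aacgcaagGACgaagacgacg
Scn3a: aagaacaaGACattgacgatg
Scn8a: gccaccgggaggacgatgaag
Of the 49 RAC sites in the CDS of the alpha genes, 37 had an RAC cytosine at the aligned base of at least 1 other alpha gene, and 12 had none. Listed at the aligned base of another alpha gene as well were 15 of the 49, all in the 7 shared columns.

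**Figure D5:**
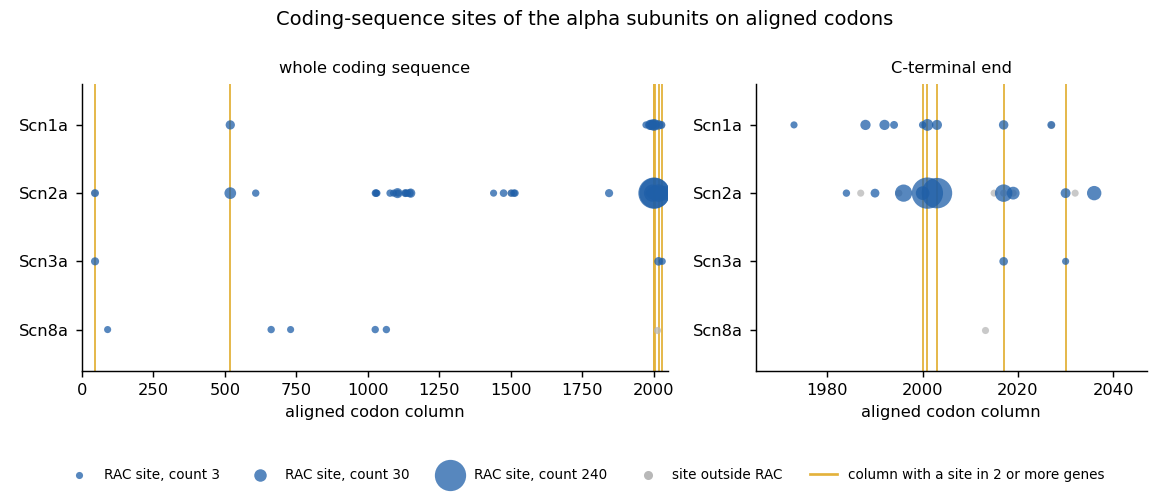
Sites in the CDS of the alpha genes by aligned codon column (x axis), over the whole CDS on the left and at its C-terminal end on the right; rows are genes, the area of a point grows with the site count, and yellow lines mark the 7 columns with a site in more than 1 gene. At the C-terminal end 5 of these columns hold some of the points of Scn1a, Scn2a and Scn3a, while other points there stand in columns of 1 gene, and Scn8a has 1 site there, outside RAC, in a column of its own.

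Because alpha genes are similar, the sequence they share around the sites was measured. Coding sequences were 82.4% identical between Scn1a and Scn2a, 83.1% between Scn2a and Scn3a and 72.7% between Scn2a and Scn8a, and the longest run of identical bases, between Scn1a and Scn2a, was 188 nt. At the listed RAC sites of the last 200 nt of the CDS, the longest run shared exactly with any other alpha gene was 11 nt in Scn2a, 11 nt in Scn1a and 10 nt in Scn3a. Of the 130 sites of the alpha genes, 8 lay in a shared run of at least 30 nt, all of them in Scn2a. They were 5 sites of exon 17 in a run of 38 nt, 2 of exon 24 in a run of 32 nt and the site 594 nt before the end of the stop codon, with a count of 7, in a run of 110 nt. Over the whole CDS of Scn2a, listed RAC cytosines had a median shared run of 11 nt and unlisted ones of 15 nt. No source used here states the read length or how reads that map to several genes were handled, and their part in which bases were listed was not tested.

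The sequence contexts of the members were close to those of the list. RAC held 110 of 138 sites, 79.7% (72.03 to 86.1), against 77.8% (77.3 to 78.2) of the sites of all other symbols. DRACH, the stricter form in which RAC is not preceded by C and not followed by G, held 77 sites, 55.8% (47.1 to 64.2), against 55.2% (54.6 to 55.8). The remaining 28 sites outside RAC all had a count of 3, the lowest in the list, as did every site outside RAC in the list. Of these 28, 20 lay within 10 nt of a listed RAC site of the same gene (71.4%). For all other symbols it was 4232 of 6251 sites outside RAC (67.7%), so this nearness is not read as a trait of the members. The commonest context was AAACA with 14 of the 110 RAC sites, followed by AGACA and TGACA with 9 each. The median count was 7 for DRACH sites and 4 for RAC sites outside DRACH, yet the highest site of all, with 240, lies outside DRACH because a G follows the edited C.

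Sites stood close together. The median distance from a member site to the next listed site of its gene was 7 nt, and 84 of the 138 had a neighbour within 10 nt (60.9%). The values were 10 nt and 51.01% for the 26723 sites of other symbols that share their symbol with another listed site. Within 400 nt of the end of the stop codon on either side lay 59 member sites, 42.8% (34.4 to 51.5). Among the 23102 sites of other symbols on a longest coding transcript the share was 31.2% (30.6 to 31.8). The last exon held 106 of the 138 member sites, 76.8% (68.9 to 83.6), against 68.1% (67.5 to 68.7) of those 23102. These shares rest on 6 genes, were not tested and are not taken as a property of sodium channels.

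Read as codons, the C-to-U changes that the fusion makes at the 62 CDS sites would leave the amino acid unchanged at 36, change it at 23 and create a stop codon at 3. The edited base was the first of its codon at 13 sites, the second at 16 and the third at 33. In Scn2a the third position held 24 of 41. The codon positions of unlisted RAC cytosines were not counted, so these numbers are not read as a trait of the sites. The shared exon 11 site of Scn1a and Scn2a is among those where the change would create a stop codon. These are consequences of the deaminase used for detection and not of m6A.

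The highest sites of the beta genes are shown because few others were listed in these transcripts. A capital C alone marks an edited C outside RAC.
Scn2b, 5: atgggaatGACttgtgaagat
Scn2b, 3: ctcagggaacCccagtaagta
Scn3b, 4: ggtgtcccAACacatccatct
The first Scn2b site lies 429 nt after the stop codon at position 45126733 of chromosome 9, and the other, outside RAC, in exon 3 of the CDS. The 6 Scn3b sites lie 318 to 1842 nt after the stop codon, with 4 of them from 318 to 431 nt, and all are in RAC.

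Among further sodium channel genes, Scn4a of skeletal muscle, Scn10a and Scn11a of sensory neurons, Scn9a of peripheral neurons, Scn7a of glia and the leak channel Nalcn had 0 sites. Scn9a lies 39239 nt from Scn1a on the same strand. Of 12 genes whose products anchor, bind or process sodium channels, 9 were listed, and these 9 carried 14 sites at the median. Among all 22028 protein-coding genes 17.5% were listed, and those carried 2 sites at the median. The 12 genes were chosen with earlier results of these data known, so the difference is not read as a property of channel partners. Ank3, the ankyrin that holds the channels at the axon initial segment, had 44 sites, and the cell adhesion genes Cntn1, Nrcam and Nfasc had 42, 31 and 14. The ubiquitin ligases Nedd4 and Nedd4l had 21 and 11. Fgf12 and Fgf14, which bind the C-terminal tail of alpha subunits, had 10 and 2, and Bace1, the protease that cleaves beta subunits, had 3. The spectrin Sptbn4 and the growth factor homologues Fgf11 and Fgf13 had 0. Among the members only Scn2a, with 68, had more sites than the 44 of Ank3. Per kb of annotated exon the highest of these 12 genes was Cntn1 with 4.45, between Scn2a with 5.34 and Scn8a with 2.66.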

How the data were processed

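A single site list of the whole series was used. The authors deposited a 1-base position, strand, gene symbol and count for each site. No header or label defines this count. Reads were aligned with STAR 2.7.5 to mm10 per the submitters' processing notes, and sites came from the Bullseye pipeline per the series text. Filters and the use of the mutant control are not stated, and depth per sample is unknown. Sites were placed on GENCODE M21, which has mm10 coordinates, by symbol and strand (27873 sites) or position (496), and 43 had no gene. Of 28246 exonic sites with context, 28245 had a C. Printed bases come from GENCODE M21 transcripts. The longest coding transcript has a complete reading frame, then the longest CDS. Alpha coding sequences were aligned as translations of these transcripts with mafft 7.526, in place of the RefSeq proteins planned. Runs of sites hold at least 4 sites with gaps of at most 50 nt. Annotation was tested on sites simulated in genes with a single transcript, so the choice between transcripts was not tested. All members were named, with the 3 highest sites of each (more where tied) and those in homologous codons, besides further sodium channel genes, some not reported here, and partners. Other sites, exons and genes were named after their values were seen. Members and lists were chosen with earlier results of these data known. Alternatives changed the region rule, count minimum, merging, motif, window and members.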

Additional observations from a re-analysis of the deposited data

How the results depend on the processing

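Of 33 alternative values, 23 stayed within the interval of the reported share or, for counts and densities, within 1.5 times of the reported value. Without Scn2a, the 3' UTR share was 84.3% and the CDS share 15.7%, so the pooled region shares rest on that gene. With a site count of 4 or more, 88 sites remained, at 1.31 per kb against 2.05 per kb, and RAC held 100%, because sites outside RAC all have a count of 3, and DRACH 75%. Merging sites within 10 nt left 87 sites, at 1.29 per kb, with 89.7% in RAC. Within 200 nt of the stop codon the share was 31.9%, as the window is narrower. On the longest coding transcript the 3' UTR share was 55.1% and the CDS share 44.9%, and without Scn2a they were 70% and 30%. Leaving out Scn2a here turns both differences from the sites of other symbols on a longest coding transcript (61.9% and 36.0%). That alternative and the one without Scn1a were added after the data were seen. Grouping within 3 aligned columns again gave 7. Leaving out replicates was not possible. No paired analysis was possible because sites carry no sample or replicate. Read depth is not in the list, so an unlisted base cannot be told from an unread one.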
